A study of Mus musculus with 6 samples.

Results

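Kinesin genes were examined in HL-1 cells, a line derived from mouse atrial cardiomyocytes, after silencing of the long noncoding RNA Malat1. The members are the protein-coding genes of the deposited table whose symbol is Kif or Klc followed by a number. There were 39 such genes among 21269 genes. Motor genes with other names, such as Cenpe and Kifc1, are not members. All cells received 50 nM of an LNA-gapmer (a DNA strand with locked ends that directs cleavage of its RNA target), either a control gapmer (LNA Control) or one against Malat1 (LNA Malat1). They were transfected 24 hours after seeding and collected 48 hours later, with 3 libraries per group. Each group thus stands for a single cell line and, by the labels, one gapmer condition. No source used here states whether the 3 libraries of a group came from separate cultures, so p-values measure the spread between libraries, which may be technical.

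Kinesins are motor proteins that use ATP to move along microtubules or to take them apart at their ends. Mitotic kinesins push spindle poles apart, move and align chromosomes, and build the midzone and midbody through which a cell divides. Transport kinesins carry vesicles, endosomes, mitochondria, and RNA, and kinesin light chains link kinesin-1 motors to cargo. Other kinesins act in cilia, in signaling, or on microtubule growth. Cardiomyocytes that do not complete cytokinesis, the division of the cell itself, can become binucleated. By these roles, 12 members were placed in the mitotic class, 13 in the transport class, 4 among the light chains, and 10 in the remaining class. Kif2a, which works both at spindle poles and in neurons, was counted as mitotic. The gene annotation of the deposited table lists the term mitotic cell cycle for 11 of the 12 mitotic genes and for 1 transport gene.

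Promoter sequences are shown because mitotic kinesin genes are commonly transcribed in a cell cycle–dependent manner through a short element near the start site, the CHR (TTTGAA), often with CCAAT boxes upstream. The 250 bases before the RefSeq start (build GRCm38.p6, the assembly also called mm10) were searched for TTTGAA and CCAAT on both strands, and 31 of the 39 members had an entry. TTTGAA was present in 5 of 11 mitotic and in 1 of 10 transport members, against 16.0% of all 32851 promoter windows. Some of these windows lie inside the gene, as in Kif14, Kif2c, and the window of Kif1a with the match. With windows that end within 500 bases of the gene's start in the deposited table, a limit set after the matches were seen, TTTGAA was present in 3 of 9 mitotic and 0 of 9 transport members, against 10.8% of 11817 such windows. CCAAT was present in 5 of 9 and 3 of 9, against 36.4%. In the 3 mitotic members TTTGAA began within the last 30 bases before the start, against 0.889% of these windows. The 30-base limit was not part of the planned search, and these 3 were taken because they hold a match. No enrichment is therefore drawn from it. The 3 genes are Kif11, Kif15, and Kif22, where the match begins 19, 19, and 17 bases before the start. Such a match is not confined to the mitotic class. In Kif26b, a member outside both classes, TTTGAA begins 9 bases before the start. A match is a stretch of letters, and binding was not measured. The windows of the 3 mitotic genes are printed with that of Kif18b, the mitotic member with the lowest log2 fold change, which has 2 CCAAT matches and no TTTGAA. Kif22 and Kif15 follow the naming rule, and Kif11 and Kif18b were added after their values were seen. Capitals mark the matches, read along the gene's strand, so that a match on the opposite strand appears as TTCAAA or ATTGG.
Kif22 (chr7:127042421-127042670, minus strand): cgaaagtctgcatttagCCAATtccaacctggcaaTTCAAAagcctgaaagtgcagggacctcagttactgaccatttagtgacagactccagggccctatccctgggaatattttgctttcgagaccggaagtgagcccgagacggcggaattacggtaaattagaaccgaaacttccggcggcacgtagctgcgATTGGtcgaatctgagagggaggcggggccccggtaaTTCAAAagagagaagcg
Kif15 (chr9:122950831-122951080, plus strand): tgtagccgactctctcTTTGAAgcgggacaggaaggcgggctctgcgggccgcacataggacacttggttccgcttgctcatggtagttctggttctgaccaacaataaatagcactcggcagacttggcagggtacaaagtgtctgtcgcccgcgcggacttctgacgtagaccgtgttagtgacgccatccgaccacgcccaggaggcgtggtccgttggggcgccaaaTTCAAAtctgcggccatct
Kif11 (chr19:37376132-37376381, plus strand): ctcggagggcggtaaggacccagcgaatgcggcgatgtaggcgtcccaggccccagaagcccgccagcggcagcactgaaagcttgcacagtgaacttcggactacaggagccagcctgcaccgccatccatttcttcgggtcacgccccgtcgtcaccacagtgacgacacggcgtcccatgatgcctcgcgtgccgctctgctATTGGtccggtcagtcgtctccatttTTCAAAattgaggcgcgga
Kif18b (chr11:102925125-102925374, minus strand): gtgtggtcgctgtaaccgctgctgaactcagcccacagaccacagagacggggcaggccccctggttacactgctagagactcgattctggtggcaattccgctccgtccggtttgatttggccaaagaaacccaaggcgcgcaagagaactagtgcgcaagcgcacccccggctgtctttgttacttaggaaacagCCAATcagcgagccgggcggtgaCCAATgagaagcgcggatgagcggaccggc

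The deposited values are read counts scaled by a library factor and then rounded, called normalized counts here. They summed to 4900507, 4921406, and 4831007 in LNA Control and to 4762957, 4762203, and 4758777 in LNA Malat1. These totals of all genes were thus lower in every LNA Malat1 library. The factors recovered from the rounding gave between 4512277 and 5592272 reads on genes. LNA Malat1 replicates 1 and 3 differed by less than sampling noise, with a chi-square of 0.949 per gene, across 14522 genes whose reads in both libraries summed to 20 or more. Across the 1754 genes that reached 1600 reads it was 1.094, above the noise. Replicates 1 and 2 were close as well, at 1.012 from 20 reads and 1.664 from 1600, and the LNA Control pairs lay between 1.768 and 4.178 from 20 reads. The average of replicates 1 and 3, the closest pair, therefore stood for 1 sample wherever a mean, percentage of LNA Control, or SD of LNA Malat1 is given (n = 2). Replicate 2 thus weighs as much in these values as replicates 1 and 3 together. All 6 libraries entered the test across genes with equal weight, so a percentage and a log2 fold change can differ slightly. Malat1 itself (chromosome 19, positions 5795690 to 5802672, mm10) was reduced to 57.2% of its LNA Control mean (log2 fold change, log2FC, of -0.80, SE 0.07, adjusted p = 7.5e-06 by limma). Of the cardiomyocyte markers, Tnnt2 had at least 647 and Actc1 at least 409 normalized counts in every library, whereas Myh6 did not exceed 7 and Gja5 did not exceed 4. Tnnt2 was higher (log2FC 0.15, adjusted p = 0.034) and Des lower (log2FC -0.29, adjusted p = 0.0082) in LNA Malat1, and the call of Tnnt2 was lost without any 1 library except LNA Control replicate 3 (adjusted p up to 0.14). Col1a1, a collagen gene and fibroblast marker, was also high, with at least 1794. The 4 fibroblast markers in the table summed to 2928 to 3362 in LNA Control and 2685 to 2757 in LNA Malat1, with 0 of 3 tested past the threshold, and Col1a2 did not exceed 1. The 2 immune markers summed to 14 to 25 and 36 to 47, and Cd68, the 1 that could be tested, was called higher (log2FC 0.79, adjusted p = 0.023), though not without LNA Control replicate 2 or any LNA Malat1 library (adjusted p up to 0.10). The 3 endothelial markers summed to 22 to 31 and 36 to 37, with 0 of 2 tested past the threshold. The 4 smooth muscle markers gave overlapping sums, and 1 of them, Cnn1, was higher (log2FC 0.40, adjusted p = 0.0035). The part of other cell types in the kinesin results was not tested.

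Per exonic length, several mitotic kinesins and a few transport kinesins were the most abundant members. Other mitotic kinesins were lower, with 81.0 per kb for Kif14, 76.0 for Kif15, and 33.1 for Kif18a in LNA Control, against 82.4 for the light chain Klc1. In LNA Control, Kif4, a chromosome-binding motor, had 264.5 ± 10.5 (SD, n = 3) normalized counts per kb of exons, and Kif11, the motor that separates spindle poles, had 258.9 ± 11.7 (SD, n = 3). These neighbors did not differ beyond their spread. Kif5b, the ubiquitous kinesin-1 heavy chain, had 217.9 ± 12.6 (SD, n = 3) per kb. Kif20a, a motor of the cytokinetic midzone, had 209.6 ± 8.5 (SD, n = 3) per kb, and its range overlapped that of Kif5b. The neuronal motors were scarce, with 3.1 per kb for Kif5a, 1.57 per kb for Kif1a, and 0.373 per kb for Kif5c. Summed over the class, mitotic kinesins made up 51.1% of the normalized counts of all members in LNA Control and transport kinesins 40.6%.

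**Figure D1:**
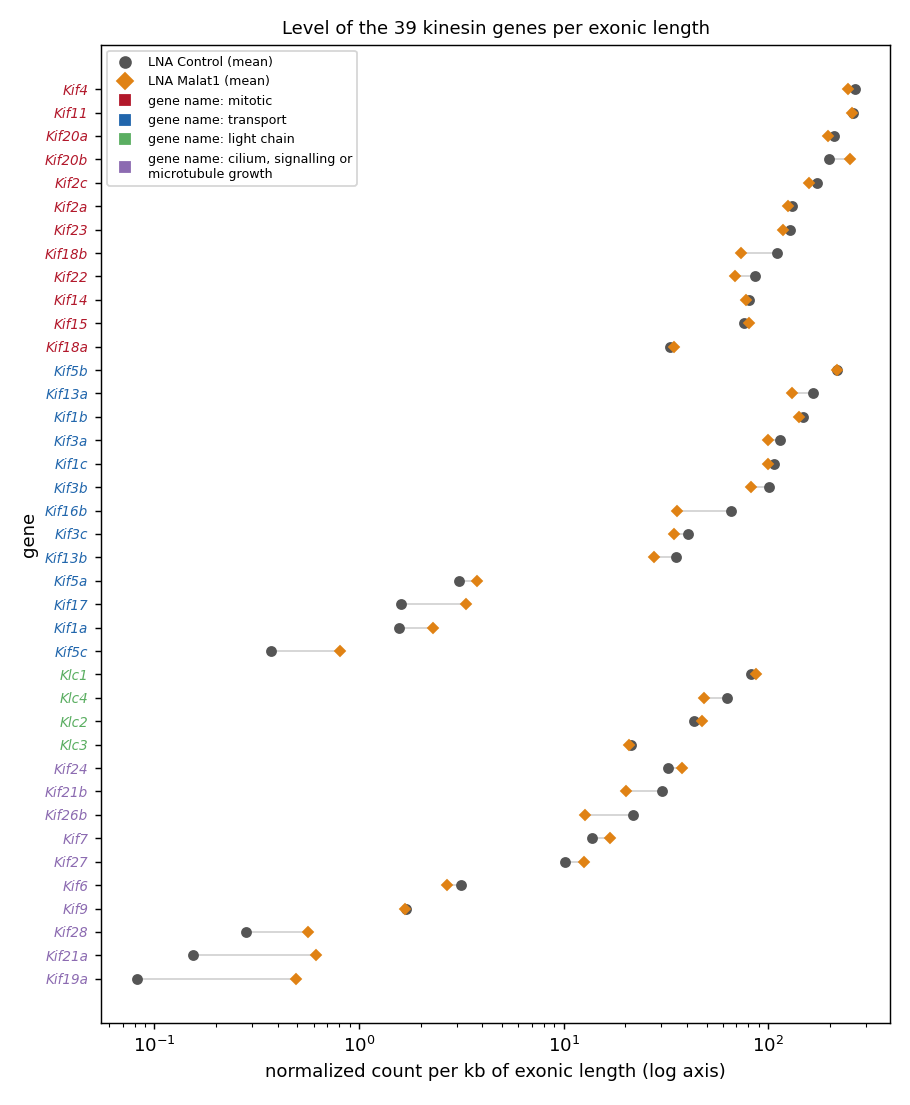
Mean normalized count per kb of exonic length (x axis, log scale) of the 39 kinesin genes (y axis, colored by class) in LNA Control (circles) and LNA Malat1 (diamonds). Kif4 and Kif11 had the highest levels in LNA Control, 264.5 and 258.9 per kb, and 4 genes stayed below 1 per kb in both groups.

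A gene was tested if its mean over the 6 libraries was at least 5 normalized counts, which 35 of the 39 members met. With p-values adjusted across the 15650 genes tested and a limit of 0.05, 10 of the 35 were lower after LNA Malat1 and 2 were higher. Of all genes tested, 14% were lower and 14.3% were higher by the same rule. With a fold change of at least 1.5 in addition, 2 members were lower (Kif16b and Kif26b) and 1 was higher (Kif17), where 2.92% and 8% of all genes were called. Among all members tested, 23 had a negative and 12 a positive log2 fold change, with a median of -0.07 against 0.02 for all genes. Of all genes tested, 7388 were negative and 8262 positive. At a mean of at least 50 normalized counts, 21 members were negative and 9 positive, against 5950 and 4540 of all genes. In bulk RNA, fewer cells of a type and less RNA per cell cannot be told apart.

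The counts of higher and lower genes differed with the level of expression. Among the 30 members with a mean of at least 50 normalized counts, 10 were lower and 1 higher, against 19.7% and 12.2% of the 10490 genes at that level. Of the 5 tested members below 50, 1 was higher and 0 were lower, whereas 18.5% of the genes at that level were higher and 2.4% lower. With the deposited scaling, genes of low counts tended upward in general. The median log2 fold change was 0.43 for genes with a mean from 5 to below 10 and 0.32 from 10 to below 20, and it was -0.05 in genes of at least 500. Quantile normalization turned this round, with medians of -0.11 from 5 to below 10 and -0.05 from 10 to below 20. The 3 libraries of LNA Malat1 lay entirely below those of LNA Control in 15 of the tested members and entirely above in 8, against 20.8% and 20.5% of all genes. At a mean of at least 50, the counts were 15 and 6 of the 30 members, against 2986 and 1807 of the 10490 genes.

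**Figure D2:**
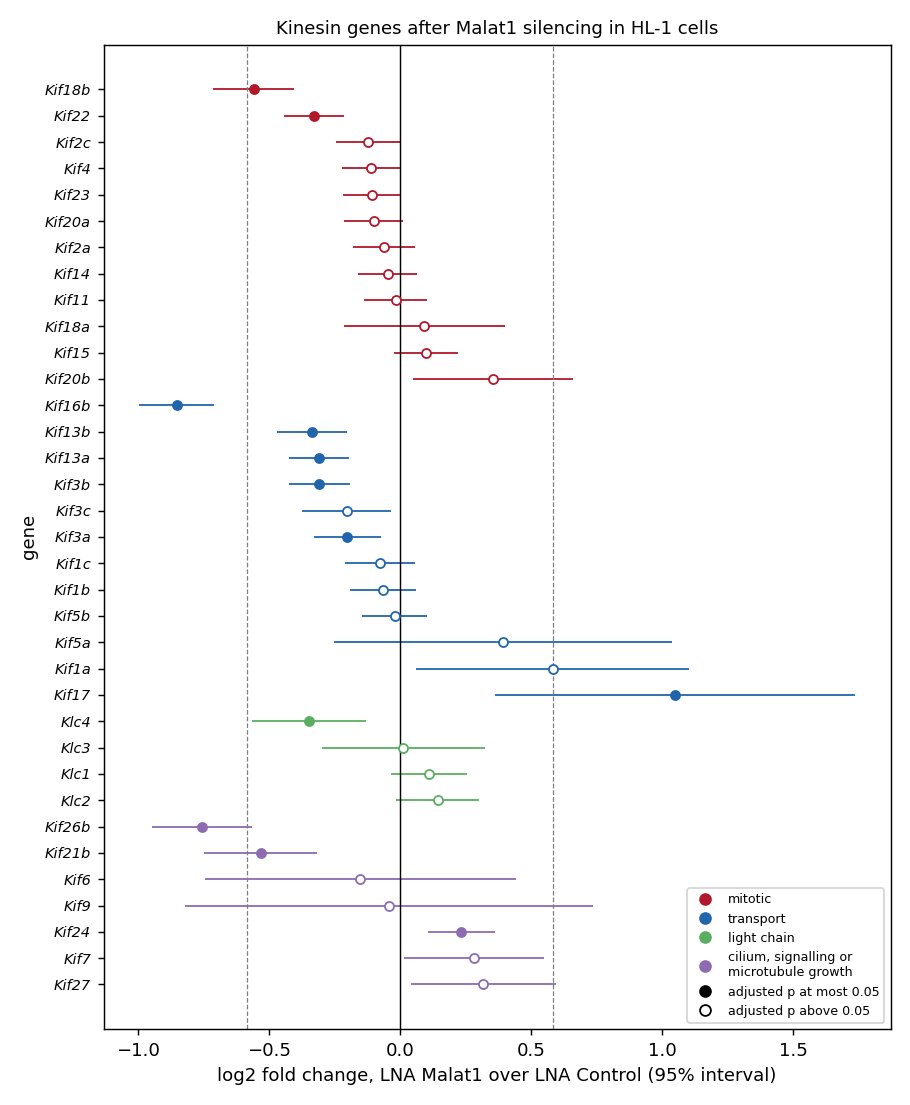
Log2 fold change of LNA Malat1 over LNA Control (x axis) with its 95% interval from limma for the 35 tested kinesin genes (y axis, colored by class), with filled points for an adjusted p no higher than 0.05 and dashed lines at a 1.5-fold change. Kif16b (-0.85) and Kif26b (-0.76) lie beyond the lower line, and the mitotic kinesins other than Kif18b, Kif22, and Kif20b lie between -0.12 and 0.10.

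Of the 12 mitotic kinesins, all were tested, 2 were lower (Kif18b and Kif22), 0 were higher, and 10 did not pass. All 12 had a mean of at least 50, the level at which 19.7% of all genes were lower and 12.2% higher. The class median log2 fold change was -0.08. The summed normalized counts of the class were 10520, 11580, and 11222 in LNA Control against 10878, 10995, and 10885 in LNA Malat1, 98.5% of LNA Control on average. The sums of the groups overlapped. They take in Kif20b and Kif18a, which were low in LNA Control replicate 1 (984 and 238, against 1514 and 328 in replicate 2). In 6 of the 12 genes the LNA Malat1 libraries lay entirely below those of LNA Control, and in 2 entirely above. Of all genes tested, 20.8% and 20.5% did so. In the class, 9 log2 fold changes were negative and 3 positive, against 5950 and 4540 of all genes with a mean of at least 50.

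Kif18b encodes a motor that shortens astral microtubules and helps to center the spindle. It had 425, 383, and 380 normalized counts in LNA Control against 286, 246, and 274 in LNA Malat1. All LNA Malat1 libraries lay below all LNA Control libraries. Its log2 fold change was -0.56 (SE 0.07, adjusted p = 0.00011), just under the 1.5-fold minimum. It ranged from -0.61 to -0.50 when any single library was dropped, and it passed the minimum without LNA Malat1 replicate 1 (-0.61), without LNA Control replicate 3 (-0.59), and with LNA Malat1 replicates 1 and 3 averaged (-0.59). The gene is on chromosome 11, positions 102905529 to 102925124 (mm10). Kif18a, its paralog that dampens chromosome oscillations at the metaphase plate, had 238, 328, and 409 in LNA Control against 315, 350, and 351 in LNA Malat1 (log2FC 0.09, 95% interval -0.22 to 0.40, adjusted p = 0.67). Its LNA Control values enclosed those of LNA Malat1. Without LNA Control replicate 1, the log2 fold change of Kif18a was -0.11 (adjusted p = 0.33).

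Kif22, a DNA-binding motor that pushes chromosome arms away from the poles, had 419, 427, and 419 in LNA Control against 331, 338, and 339 in LNA Malat1. The values were tight in both groups and did not overlap. The Kif22 mean dropped to 79.8% of that in LNA Control (log2FC -0.33, SE 0.05, adjusted p = 0.00063). It lies on chromosome 7, positions 127027729 to 127042471. Kif4, another chromosome-binding motor, had 1433, 1525, and 1418 in LNA Control against 1350, 1357, and 1348 in LNA Malat1 (log2FC -0.11, 95% interval -0.22 to 0.00, adjusted p = 0.13). Its groups did not overlap, but the difference did not pass the test.

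The spindle pole motors gave narrow intervals around 0. Kif11 had 1931, 2019, and 1845 in LNA Control against 1899, 1950, and 1874 in LNA Malat1 (log2FC -0.02, 95% interval -0.14 to 0.10). Kif15, which can act in place of Kif11, had a log2 fold change of 0.10 (95% interval -0.02 to 0.22, adjusted p = 0.21). Neither interval reaches a 1.5-fold change. Both genes hold TTTGAA near the start, as do Kif22 and, outside the mitotic class, Kif26b, which both fell. The microtubule depolymerases of centromeres and spindle poles, Kif2c and Kif2a, had log2 fold changes of -0.12 (95% interval -0.24 to 0.00) and -0.06 (95% interval -0.18 to 0.06).

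The study asked about binucleation, which follows when cytokinesis is not completed, so the kinesins of cytokinesis are given together. Kif23, the motor subunit of centralspindlin, had 993, 1051, and 984 in LNA Control against 926, 940, and 941 in LNA Malat1. The groups did not overlap, and its log2 fold change of -0.11 (95% interval -0.22 to 0.00) had an adjusted p of 0.13. Kif20a, which brings the Aurora B complex to the midzone, had 870, 943, and 915 against 828, 866, and 848 (log2FC -0.10, adjusted p = 0.17). Kif14, which recruits citron kinase to the midbody, had a log2 fold change of -0.05 (95% interval -0.16 to 0.07, adjusted p = 0.54). The exons of Kif20a share 29.3% of their length with Cdc23 on the opposite strand. Such shared length was 19.2% in Kif2a, 19.1% in Kif7, and 15.1% in Kif4. Reads assigned to several genes were not counted, and it is not given in the sources used here whether the counting used the strand.

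Kif20b, a slow motor of late cytokinesis, had the highest log2 fold change of the mitotic kinesins but did not pass. It had 984, 1514, and 1664 in LNA Control against 1736, 1776, and 1681 in LNA Malat1. Every LNA Malat1 library lay above every LNA Control library, and LNA Control replicate 1 was far below the rest. The log2 fold change was 0.35 (SE 0.14, adjusted p = 0.079). It was 0.50 without LNA Control replicate 3 (adjusted p = 0.0091). Without LNA Control replicate 1 it was 0.13. Kif20b and Kif18a were the 2 of 30 members with a mean of at least 50 in which LNA Control replicate 1 was lowest against replicates 2 and 3, by -0.69 and -0.63 on the log2 scale. Of the 10490 genes at that level, 1.73% were as low as Kif18a in this comparison, and the median of the 30 members was 0.01. Cenpe, a kinetochore motor of the kinesin-7 family that the name rule does not take in, was also low in that library, with 1018, 1736, and 1962 in LNA Control against 2007, 1927, and 1864 in LNA Malat1 (log2FC 0.35, adjusted p = 0.15). What set this library apart for these genes was not tested.

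**Figure D3:**
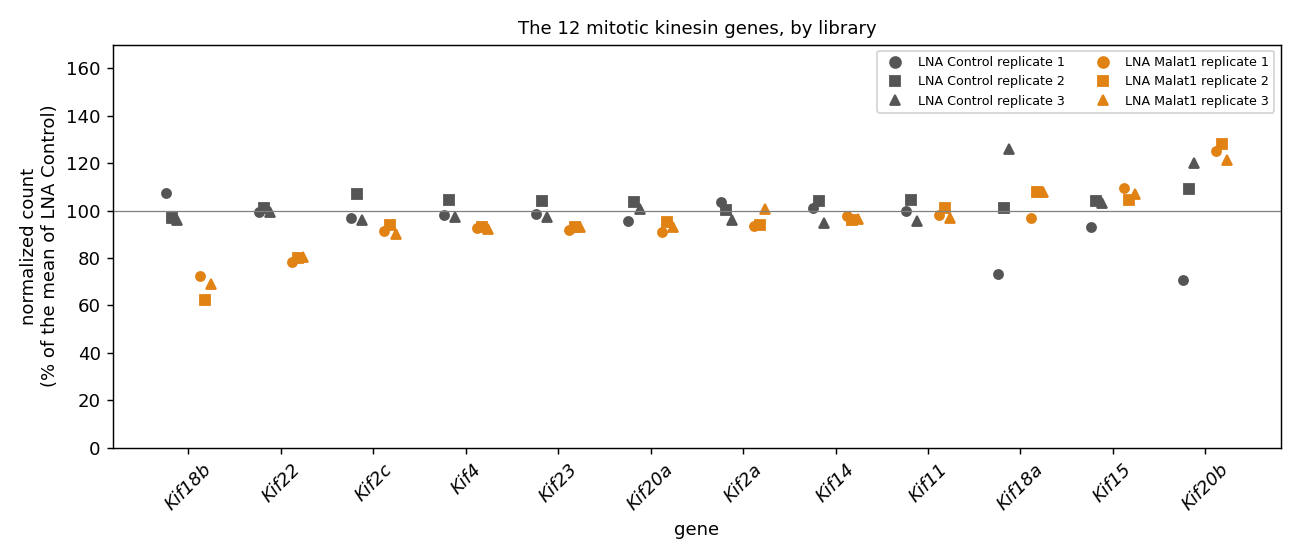
Normalized count of the 12 mitotic kinesin genes (x axis) in each library, in % of the mean of LNA Control (y axis), with LNA Control in gray and LNA Malat1 in orange. Kif18b (66.4%) and Kif22 (79.8%) fell, and LNA Control replicate 1 is low in Kif18a and Kif20b.

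The transport kinesins that were lower belong to the kinesin-3 and kinesin-2 families. Of 13 transport members, 12 were tested, 5 were lower (Kif16b, Kif13a, Kif13b, Kif3b, and Kif3a), 1 was higher (Kif17), and 6 did not pass. By the same rule, 14% of all genes tested were lower and 14.3% higher. The 5 lower members had a mean of at least 50, where 19.7% of all genes were lower and 12.2% higher. Kif17 had a mean under 50, where 18.5% were higher and 2.4% lower. The class median log2 fold change was -0.14. The summed normalized counts were 8775, 9129, and 8584 in LNA Control against 7955, 7754, and 7838 in LNA Malat1, 88.6% of LNA Control. The sums of the groups did not overlap, and neither did the totals of all genes, which were also lower in LNA Malat1. As in the mitotic class, the LNA Malat1 libraries lay entirely below those of LNA Control in 6 tested members and entirely above in 2. The shares of all genes tested were 20.8% and 20.5%. In the transport class too, 9 log2 fold changes were negative and 3 positive, against 7388 and 8262 of all genes tested.

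Kif16b, an endosomal kinesin-3 that carries early endosomes toward the cell periphery, showed the largest fall of the tested members. It had 555, 639, and 591 normalized counts in LNA Control against 344, 309, and 334 in LNA Malat1. The highest LNA Malat1 library had far fewer counts than the lowest LNA Control library. The mean was 595.0 ± 42.1 (SD, n = 3) against 324.0 ± 21.2 (SD, n = 2), 54.5% of LNA Control (log2FC -0.85, SE 0.07, adjusted p = 2.1e-06). Kif16b stayed called when any single library was dropped, at a log2FC from -0.90 to -0.80. It lies on the minus strand of chromosome 2, positions 142617474 to 142901531.

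The other endosomal and vesicle kinesin-3 motors, Kif13a and Kif13b, fell by less. Kif13a, which carries recycling endosomes, had 1365, 1342, and 1301 in LNA Control against 1107, 1021, and 1108 in LNA Malat1 (log2FC -0.31, SE 0.05, adjusted p = 0.001). Kif13b had 490, 441, and 449 against 356, 354, and 382 (log2FC -0.34, SE 0.06, adjusted p = 0.0014). In both genes the groups did not overlap. Kif13a lies on chromosome 13, positions 46749087 to 46929867, and Kif13b on chromosome 14, positions 64647265 to 64809617.

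The Kif1 genes of the same kinesin-3 family did not pass the test. Kif1b, a carrier of mitochondria and synaptic vesicle precursors and the member with the highest counts, had 2533, 2757, and 2504 in LNA Control against 2472, 2479, and 2489 in LNA Malat1 (log2FC -0.07, 95% interval -0.19 to 0.06, adjusted p = 0.43). Kif1c had a log2 fold change of -0.08 (95% interval -0.21 to 0.06, adjusted p = 0.39). Kif1a, a motor of neurons, had 16, 14, and 14 against 26, 18, and 24 (log2FC 0.58, adjusted p = 0.089), at low counts. Whether these changes differ from those of the Kif13 genes was not tested.

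In the heterotrimeric kinesin-2 motor, which carries membrane cargo and builds cilia, Kif3a and Kif3b form the motor pair and Kifap3 links it to cargo. Kif3b had 578, 558, and 571 in LNA Control against 450, 483, and 446 in LNA Malat1 (log2FC -0.31, SE 0.05, adjusted p = 0.0011). Kif3a had 395, 415, and 420 against 374, 358, and 338 (log2FC -0.20, SE 0.06, adjusted p = 0.023). In both the groups did not overlap. Kif3c, which can take the place of Kif3b beside Kif3a, had 333, 290, and 275 against 275, 244, and 259 (log2FC -0.20, adjusted p = 0.071). Kifap3, which is not a member, had 596, 581, and 529 against 469, 475, and 487 (log2FC -0.25, SE 0.06, adjusted p = 0.0063). The 4 genes together had 1902, 1844, and 1795 normalized counts in LNA Control against 1568, 1560, and 1530 in LNA Malat1, 84.2% of LNA Control.

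Kif3a lost its call in several settings. It had an adjusted p of 0.076 without LNA Control replicate 2, 0.051 without LNA Control replicate 3, 0.065 without LNA Malat1 replicate 2, 0.11 without LNA Malat1 replicate 3, and 0.10 under quantile normalization. Of its exons, Kif3c shares 35.3% with 1110002L01Rik on the opposite strand. Kif3c passed without LNA Control replicate 3 (adjusted p = 0.028). Kif3b lies on chromosome 2, positions 153291413 to 153333390, and Kif3a on chromosome 11, positions 53567379 to 53601967.

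Kif17, the homodimeric kinesin-2 of dendrites and sensory cilia, rose from a low level. It had 5, 8, and 9 in LNA Control against 18, 13, and 17 in LNA Malat1 (log2FC 1.05, SE 0.32, adjusted p = 0.026). The groups did not overlap, but they are separated by few counts. The median log2 fold change of all genes with a mean from 10 to below 20 was 0.32 with the deposited scaling, and under quantile normalization Kif17 had a log2 fold change of 0.61 (adjusted p = 0.13). Its adjusted p was 0.061 without LNA Control replicate 1, 0.11 without LNA Malat1 replicate 1, and 0.097 without LNA Malat1 replicate 3. It lies on chromosome 4, positions 138250435 to 138301967. Neuronal marker genes were low as well. Over the 5 genes of the list, the normalized counts summed to 20 to 32 in LNA Control and 54 to 66 in LNA Malat1. Tubb3, a neuronal tubulin, had 10, 8, and 8 against 27, 28, and 25 (log2FC 1.52, adjusted p = 0.00066), and it was the 1 of 3 tested markers that passed. Snap25 was at 0 in every LNA Control library and did not exceed 3 in LNA Malat1, and Rbfox3 did not exceed 9 in any library.

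**Figure D4:**
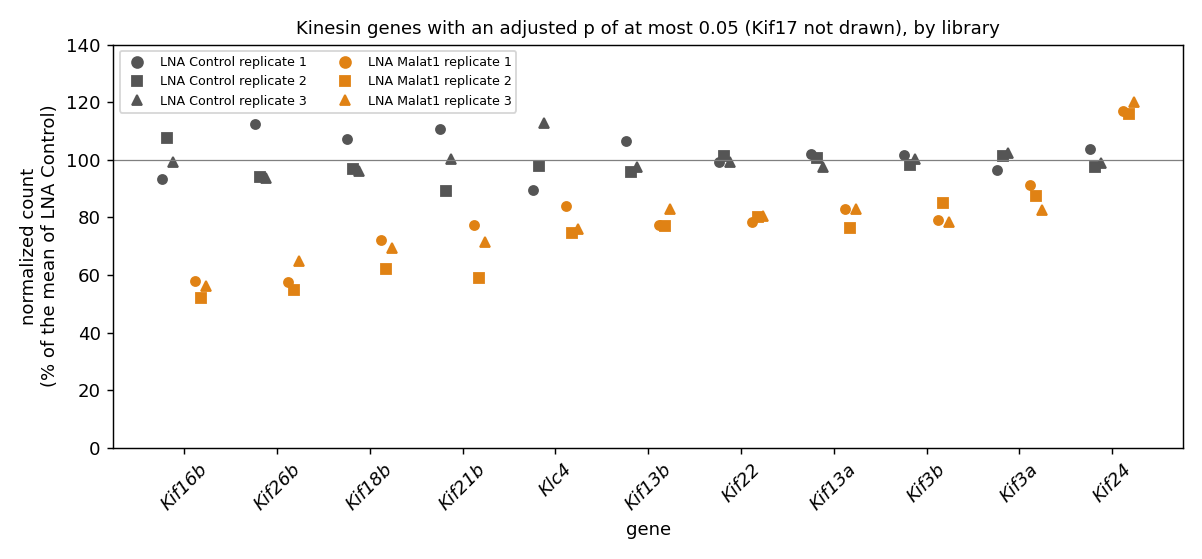
Normalized count in each library (y axis, % of the mean of LNA Control) of the kinesin genes with an adjusted p of at most 0.05 (x axis), with LNA Control in gray and LNA Malat1 in orange, and without Kif17, whose counts are low. In the 10 genes that fell the groups do not overlap, and the mean of LNA Malat1 is lowest in Kif16b (54.5%) and Kif26b (58.0%).

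No gene of the kinesin-1 heavy chain, the main carrier of mitochondria and many vesicles, passed the test. Kif5b had 1668, 1854, and 1696 in LNA Control against 1717, 1755, and 1671 in LNA Malat1 (log2FC -0.02, 95% interval -0.14 to 0.10, adjusted p = 0.83). Kif5a ranged from 13 to 34 over the libraries (adjusted p = 0.35), and Kif5c, with 1 to 7 counts, was not tested. The light chains Klc1 and Klc2 had log2 fold changes of 0.11 (95% interval -0.03 to 0.25) and 0.14 (95% interval -0.01 to 0.30). Klc2 lies 677.1 kb from Malat1 on chromosome 19, closer than the other members there, Kif20b and Kif11.

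Klc4 was the light chain that fell. It had 134, 147, and 169 in LNA Control against 126, 112, and 114 in LNA Malat1, and the groups did not overlap. The log2 fold change was -0.35 (SE 0.10, adjusted p = 0.021). Klc4 did not pass without LNA Control replicate 2 (adjusted p = 0.061), LNA Control replicate 3 (0.073), LNA Malat1 replicate 2 (0.084), or LNA Malat1 replicate 3 (0.080), and had 0.0501 with LNA Malat1 replicates 1 and 3 averaged. Klc3 had 60, 58, and 51 against 64, 50, and 57 (log2FC 0.01, 95% interval -0.30 to 0.32), and 28.1% of its exonic length is shared with Ercc2 on the opposite strand.

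Among the 10 kinesins of cilia, signaling, or microtubule growth, 7 were tested, 2 were lower (Kif26b and Kif21b), 1 was higher (Kif24), and 4 did not pass. By the same rule, 14% of all genes tested were lower and 14.3% higher. The 3 that passed had a mean of at least 50, where 19.7% of all genes were lower and 12.2% higher. Kif26b, an atypical kinesin that lacks motor activity and takes part in Wnt5a signaling and cell adhesion, had 361, 301, and 300 in LNA Control against 184, 176, and 208 in LNA Malat1. The groups were far apart. Its mean fell from 320.7 ± 34.9 (SD, n = 3) to 186.0 ± 14.1 (SD, n = 2), 58.0% of LNA Control (log2FC -0.76, SE 0.09, adjusted p = 5.2e-05). Kif26b likewise stayed called when any single library was dropped, at a log2FC from -0.82 to -0.67. It lies on chromosome 1, positions 178529125 to 178939200.

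Kif21b, which limits microtubule growth, had 408, 329, and 370 in LNA Control against 286, 218, and 263 in LNA Malat1 (log2FC -0.53, SE 0.10, adjusted p = 0.0017). The groups did not overlap, and the spread was similar in both. Its log2 fold change passed the 1.5-fold minimum without LNA Control replicate 2 (-0.61), without LNA Malat1 replicate 1 (-0.62), and with LNA Malat1 replicates 1 and 3 averaged (-0.59). Kif24, a depolymerizing kinesin at centrioles that holds back the growth of cilia, was higher, with 269, 253, and 256 against 303, 301, and 311 (log2FC 0.23, SE 0.06, adjusted p = 0.011). Kif21b lies on chromosome 1, positions 136131389 to 136177998, and Kif24 on chromosome 4, positions 41390745 to 41464887. Kif24 was the 1 member with a mean of at least 50 that passed upward.

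Kif27 and Kif7, paralogs with roles in motile cilia and Hedgehog signaling, both lay higher without passing. Kif27 had 56, 51, and 52 against 71, 65, and 63 (adjusted p = 0.081), and Kif7 had 71, 60, and 59 against 80, 77, and 74 (adjusted p = 0.11, and 0.049 without LNA Control replicate 1). In both the groups did not overlap. Kif6 ranged from 14 to 23 and Kif9 from 5 to 10, with intervals that include a 1.5-fold fall and, in Kif9, also a 1.5-fold rise. Kif19a, Kif21a, and Kif28 had at most 3, 8, and 3 normalized counts in any library and were not tested.

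**Figure D5:**
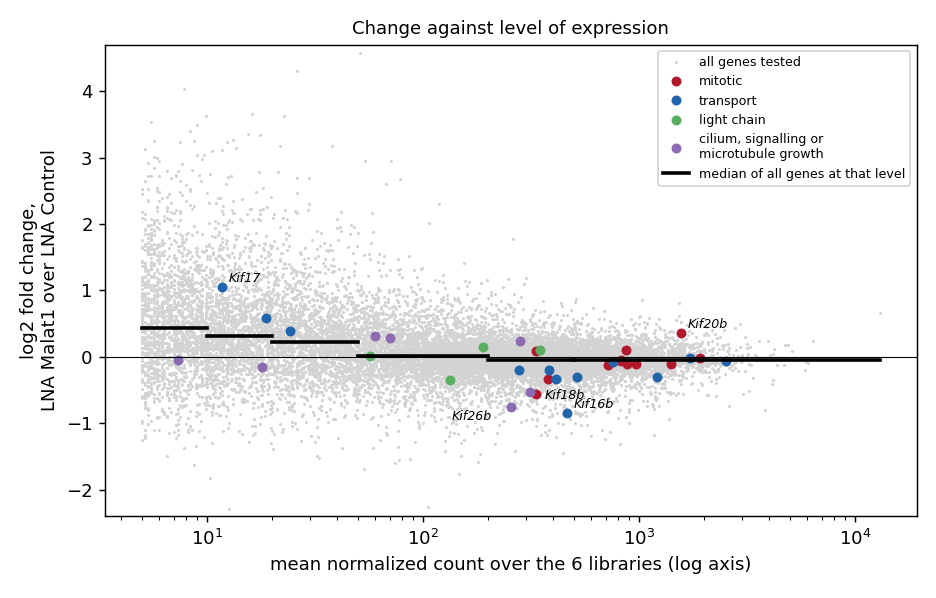
Log2 fold change (y axis) against the mean normalized count over the 6 libraries (x axis, log scale) for all genes tested (gray) and the 35 tested kinesin genes (colored by class), with black bars at the median of all genes in each range of counts. With the deposited scaling drawn here, the bars fall from 0.43 at the lowest counts to -0.05 at the highest (quantile normalization gave -0.11 at the lowest), and Kif16b and Kif26b lie far below them.

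The 2 members called lower were also the longest of the well-counted members. Kif26b spans 410.1 kb, Kif16b 284.1 kb, Kif13a 180.8 kb, and Kif13b 162.4 kb, and these are the 4 members with a mean of at least 50 that span 150 kb or more, a length chosen after the values were seen. All 4 were lower, with a median log2 fold change of -0.55. Of all 708 genes of such span and counts, 46.6% were lower, with a median of -0.19. Of the 26 shorter members at that level, 6 were lower, with a median of -0.06, against 17.8% of all 9782 shorter genes. Over the 30 members the rank correlation of span and log2 fold change was -0.09, and it was -0.12 over the 10490 genes with such counts. The genes share the same 6 libraries, and no test was made of this description.

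Partners of the kinesins were counted from a separate list. Of 21 partners and regulators of mitotic kinesins, with the mitotic motors that have other names, 4 were lower (Aurka, Bub1b, Cep55, and Kifbp), 0 were higher, and 17 did not pass, with a median log2 fold change of -0.09. All 21 had a mean of at least 50, where 19.7% of all genes were lower. Leaving out 1 library ended the call of Aurka (LNA Control replicate 2 or LNA Malat1 replicate 3, adjusted p up to 0.055), of Bub1b (LNA Control replicate 2 or LNA Malat1 replicate 1 or 3, up to 0.060), and of Cep55 (any library but LNA Control replicate 1, up to 0.13). Racgap1, the partner of Kif23 in centralspindlin, had 1089, 1113, and 984 in LNA Control against 978, 970, and 952 in LNA Malat1 (log2FC -0.13, adjusted p = 0.097). Kifbp, which binds several kinesin motor domains and keeps them off microtubules, had 225, 240, and 226 against 199, 183, and 186 (log2FC -0.28, SE 0.07, adjusted p = 0.0091). Of 10 general genes of dividing cells, 2 were higher (Bub1 and Ube2c) and 3 lower (Ccna2, Cdk1, and Ccnb1). Of all genes at that level, 12.2% were higher and 19.7% lower, and the median log2 fold change of the 10 was -0.08. Of these calls, only that of Ccna2 held when any 1 library was left out. The adjusted p rose to 0.18 in Bub1, 0.12 in Cdk1, 0.091 in Ccnb1, and 0.064 in Ube2c.

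Of 25 tested adaptors and regulators of transport kinesins, 6 were lower (Kifap3, Mapk8ip1, Madd, Map7, Appbp2, and Ppfia1) and 3 were higher (Kifc2, Kifc3, and Ranbp2), with a median log2 fold change of -0.06. Of all genes tested, 14% were lower and 14.3% higher. The 6 lower genes all had a mean of at least 50, where 19.7% of all genes were lower and 12.2% higher. Leaving out 1 library ended the call of Map7 (any but LNA Control replicate 3, adjusted p up to 0.13), of Ppfia1 (any but LNA Control replicate 3, up to 0.13), and of Ranbp2 (any LNA Malat1 library, up to 0.077), and quantile normalization ended those of Map7 and Ppfia1 (both 0.11). Mapk8ip1, a scaffold that binds kinesin light chains, had 81, 86, and 85 in LNA Control against 61, 54, and 55 in LNA Malat1 (log2FC -0.56, SE 0.12, adjusted p = 0.0036). Kifc2, a minus-end-directed kinesin, was the 1 gene of the list past both thresholds, with 16, 14, and 16 against 29, 25, and 35 (log2FC 0.90, SE 0.22, adjusted p = 0.0096). Kifc2 did not pass without LNA Malat1 replicate 3 (adjusted p = 0.058) or under quantile normalization (adjusted p = 0.070). The mitochondrial adaptors Trak1 and Trak2 of Kif5b had log2 fold changes of -0.06 and -0.08 (adjusted p = 0.61 and 0.26).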

How the data were processed

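Stranded total RNA libraries, 3 per group, were sequenced. The study's methods and the submitters' processing notes name Trimmomatic 0.39, STAR 2.7.7a with mm10, featureCounts 1.6.5 (reads that fell on more than 1 gene were dropped), and, among the tools of the authors, DESeq2 1.30.0. What the authors deposited is, in unit terms, a score: normalized counts, made with a single factor for every library and then rounded. Tests meant for raw counts were therefore not used, apart from limma's voom on approximately recovered reads as an alternative.

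Genes with a mean of at least 5 were tested across all genes with limma 3.58.1 in R 4.3.3 (lmFit, eBayes with trend) on log2(normalized count + 1), two-sided, with Benjamini-Hochberg adjustment. Fold changes are on this scale, which understates those of low genes. The step was tested on simulated data. The members, roles, and lists were chosen with earlier results of these data known. Every member was named by rule, and partners when past an adjusted p of 0.05 and a fold of 1.5 or when they bind a kinesin described. Other partners printed, Mapk8ip1, Cenpe, and those named in counts, were chosen after their values were seen. Exonic lengths and overlaps came from GENCODE M21, in which all 39 members have the same position as in the table. Promoter windows came from RefSeq. With 3 libraries per group, an exact permutation test cannot give a p under 0.1, so no single value was tested alone. The chi-square between libraries takes in counting error only, since no molecular identifiers are described. The alternatives were the replicate block, pseudocounts of 0.1 and 5, 2 other scalings, 2 other filters, leaving out each library, LNA Malat1 replicates 1 and 3 as 1 sample, voom, a smaller minimum fold, and Kif2a left out of its class.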

Additional observations from a re-analysis of the deposited data

How the results depend on the processing

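The 2 mitotic kinesins that were lower and the log2 fold change of Malat1 (-0.88 to -0.75 with each library left out) kept an adjusted p of at most 0.05 under every alternative run. Kif16b, Kif26b, Kif18b, Kif22, Kif13a, Kif13b, Kif3b, Kif21b, and Kif24 passed an adjusted p of 0.05 in all 15 alternative fits each (limma). The number of kinesin genes called lower was 2, and became 4, with Kif18b and Kif21b, once LNA Malat1 replicates 1 and 3 were averaged, and 7 with the smaller minimum fold. The 1 gene called higher, Kif17, was lost (0 called) under quantile normalization, with a mean of at least 50, and once LNA Malat1 replicates 1 and 3 were averaged. In each of these settings 1 member passed 0.05 upward, Kif24, and 0 of the transport kinesins did. Dropping 1 library at a time gave 0 to 1 genes called higher (0 without LNA Control replicate 1 or LNA Malat1 replicate 1 or 3), 2 to 4 called lower (4 without LNA Malat1 replicate 1), 1 to 3 higher by adjusted p alone (1 without LNA Malat1 replicate 1 or 3) and 8 to 10 lower, 0 to 1 mitotic kinesins higher (1, Kif20b, without LNA Control replicate 3), 2 mitotic kinesins lower, 0 to 1 transport kinesins higher, and 4 to 5 lower. By adjusted p alone, the scalings moved the counts of all genes too. Of 15650 genes, 2195 were lower and 2231 higher with the deposited scaling, 2402 and 2116 with median-of-ratios, and 2105 and 2118 with quantile normalization. The members gave 10 and 2, 11 and 2, and 9 and 1. For the other settings the share of all genes is not given here. A mean of at least 50 leaves Kif17 untested. The cause of the other changes was not tested.

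The replicate number as a block gave 1 mitotic kinesin higher, Kif20b, against 0 without it, and also passed Kif3c. Libraries with the same number deviated together only weakly, with correlations of 0.086, 0.182, and 0.083 across 10490 genes for numbers 1, 2, and 3, so the numbers were not taken to pair the libraries. Each library correlated best with its own number.

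Small log2FC values near 0 changed sign in members that did not pass. For Kif9 it was 0.015 with voom and ranged from -0.26 to 0.17 over the fits without 1 library. For Klc3 it was -0.0052 with median-of-ratios scaling, -0.11 with quantile normalization, -0.030 with LNA Malat1 replicates 1 and 3 averaged, and -0.073 to 0.10 without 1 library. For Kif18a it ranged from -0.11 to 0.27, for Kif11 from -0.050 to 0.015, and for Kif5b from -0.049 to 0.027 without 1 library. Quantile normalization gave 0.019 for Kif11, 0.0027 for Kif14, and 0.0012 for Kif5b. The scalings moved the median of all genes by less than 0.1, but quantile normalization moved that of genes with a mean from 5 to below 10 from 0.43 to -0.11. Depth limits the members under 50 normalized counts most.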
